A study of Bos taurus with 35 samples.

Results

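The comparison was between skeletal muscle and the intramuscular fat that lies inside it, in Hanwoo, a Korean beef breed. Members were taken by the tissue of the labels, which gave 8 muscle and 8 intramuscular fat libraries, 16 of the 34 libraries read in the series. The other 18 libraries were 9 of omental fat, from around the stomach, and 9 of subcutaneous fat, and they served only as a reference. Poly(A) RNA was sequenced from animals of 30 months for which the labels name no treatment or allele, and replicates 1 to 9 are the 9 animals. Replicates 1, 4 and 7 were labelled female, 2, 5 and 8 castrated male, and 3, 6 and 9 male, while the study's methods call the animals steers. Replicate 7 had no muscle library, the intramuscular library of replicate 9 was not analysed here, and 7 animals had both. Subcutaneous and intramuscular fat were dissected from 1 rib section, and each library is a whole piece of tissue with all of its cell types.

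Muscle fibres are long fused cells filled with contractile filaments, and they burn stored fuel to shorten. Adipocytes of intramuscular fat, the marbling of beef, sit between bundles of these fibres, in connective tissue with vessels, fibroblasts and immune cells, and they store fuel as triglyceride. The sources used here do not say how the fat was freed from the fibres around it. In such bulk samples, fewer cells of a type and less RNA per cell cannot be told apart.

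The count tables pair no identifier with a name, and only the 31 genes of the study's qRT-PCR primer list could be named. Of the 554 symbols in 30 lists of fibre, adipocyte, matrix, vessel, nerve and immune genes, 10 were among these 31, so no list was counted. The labelled tissues could be checked only with TPM2 for the sarcomere, FASN and DGAT2 for lipid synthesis, CD163 and ITGAM for myeloid cells and TNMD for tendon. The primers below are those of the 6 genes with the largest fold changes, in either direction, among the 19 named genes tested. They are the designed oligos of the study, read 5′ to 3′ in lower case, and no base is set apart by capitals.
DUSP27 forward: ggtcaaggaagatgaggatgagg
DUSP27 reverse: cagggaggagaaggtgtctgttt
EEF1A2 forward: ctcggctctggactcactgct
EEF1A2 reverse: tctccttgcccattctgcct
TPM2 forward: agagtttgctgaaaggtcggtg
TPM2 reverse: atggaaaggagaagagagagggg
TNMD forward: ctcttattgtcctgttttggggg
TNMD reverse: tcttcttcttctctccattgctgt
CCL2 forward: ccctcctgtgcctgctactc
CCL2 reverse: cttgctgctggtgactcttctgt
FGF7 forward: tcaaaagggggttccagtaagag
FGF7 reverse: gaaaagatgaaaaagaaaacagtcca
The FGF7 reverse primer was the poorest in G and C of the 12, at 30.8%, and the CCL2 forward primer the richest, at 65.0%.

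Counts on genes were 3726376 to 6612376 per library in muscle and 4363871 to 6505720 in intramuscular fat. Before any result, 3 libraries need a remark. The muscle library of replicate 4, labelled female, held 599 counts of 5 genes that summed to at most 2 counts in the 9 fat libraries labelled female and to at least 697 in the 17 labelled male or castrated male. The other female muscle library held 1 such count and the other 6 muscle libraries 425 to 901, so its animal is in doubt, although its tissue is not. In intramuscular fat, replicate 5 correlated with the other 7 libraries at 0.826 to 0.857 (Pearson, log2 CPM), where the best match of each other library was 0.960 to 0.970. The muscle library of replicate 8 lay nearest to the fat on the first component, with a score of -39.0 against -114 to -82.1 for the other muscle libraries.

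**Figure D1:**
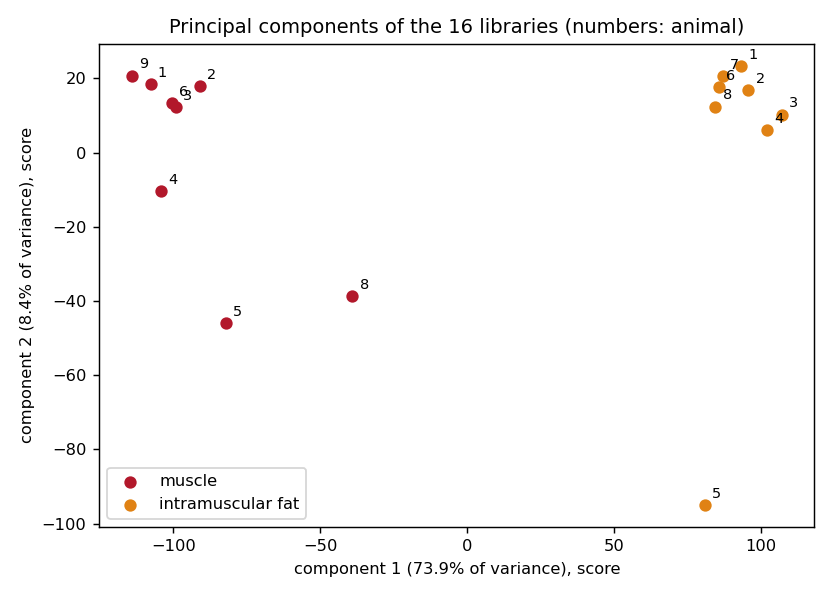
Scores of the 8 muscle and 8 intramuscular fat libraries on the first and second principal components of log2 CPM over the 12447 genes tested; each point is 1 library, numbered by animal. The first component, 73.9% of the variance, parts the tissues, while intramuscular replicate 5 (score -95.0) and muscle replicates 5 and 8 (-45.9 and -38.8) lie low on the second.

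The second component held 8.4% of the variance. Along it, intramuscular replicate 5 and muscle replicates 5 and 8 stood low. Their shares of reads that aligned to more than one place were 15.4%, 11.3% and 14.5%, against medians of 9.40% in intramuscular fat and 8.29% in muscle. Intramuscular replicate 4 had 13.1% of such reads and did not stand low, with a score of 6.09. Its part in the results was not tested.

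The messages of muscle were concentrated in few genes. The 20 most abundant genes of each library took 23.1% to 30.6% of its gene counts in muscle (median 26.2%) and 8.13% to 10.2% in intramuscular fat (median 8.52%). No muscle library overlapped the fat (exact permutation test over 16 libraries, two-sided, p = 0.00016, the smallest it can give, adjusted p = 0.00036 over 7 measures). In turn, 11908 to 12952 genes reached 1 CPM (a count scaled to a library total of 1000000 on genes) in muscle and 13430 to 14139 in intramuscular fat (exact permutation p = 0.00016, adjusted p = 0.00036). Mean counts on genes were 5099900 ± 952589 in muscle and 5623590 ± 746827 in intramuscular fat (SD, n = 8 each), with an exact permutation p of 0.24. Genes took a mean of 34.1% of listed reads in muscle and 31.2% in intramuscular fat (exact permutation p = 0.0053, adjusted p = 0.0092). Reads on no annotated feature were 56.3% and 58.4% (exact permutation p = 0.013, adjusted p = 0.018). Reads aligned to several places were 9.48% and 10.3% (exact permutation p = 0.49).

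Muscle and intramuscular fat differed at most genes. Of 12447 genes tested with the quasi-likelihood test of edgeR, 7441 (59.8%) were DEGs at a Benjamini-Hochberg FDR under 0.01. Of these, 3730 (30.0%) were higher in muscle and 3711 (29.8%) in intramuscular fat. Log2 fold changes are given as muscle minus intramuscular fat. The even split depended on the scale: without TMM factors 1678 DEGs were higher in muscle and 6634 in intramuscular fat, and the median log2 fold change of all genes moved from 0.00 to -0.79.

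The number of DEGs in each direction varied with the size of the difference. At least a 2-fold difference was reached by 2647 DEGs higher in muscle and 3008 higher in intramuscular fat, 16-fold by 323 and 135, and 64-fold by 101 and 7. A log2 difference of at least 8 was reached by 0 and 1. In the 7 animals with both libraries, 3061 of the 3730 muscle DEGs were higher in muscle in every animal. Of the 3711 others, 3064 were lower in muscle in every animal. Replicate 4, whose muscle library is of doubtful animal, counts as 1 of the 7. In all, 3727 genes (29.9% of those tested) had libraries that did not overlap between the tissues.

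The DEGs of each direction carried much of the RNA of their own tissue. Genes higher in muscle held 60.7% to 78.3% of TMM-scaled counts in muscle libraries and 17.5% to 19.8% in intramuscular fat. Genes higher in intramuscular fat held 47.4% to 51.1% there and 6.08% to 16.3% in muscle, and the highest muscle value was that of replicate 8, with 9.18% as the next. These genes were chosen by the same contrast, so the shares are a description. Without muscle replicate 4 there were 7228 DEGs, without intramuscular replicate 5 there were 7930, and without both 7627. Of the 7441 DEGs, 7114 remained DEGs of the same direction without both.

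**Figure D2:**
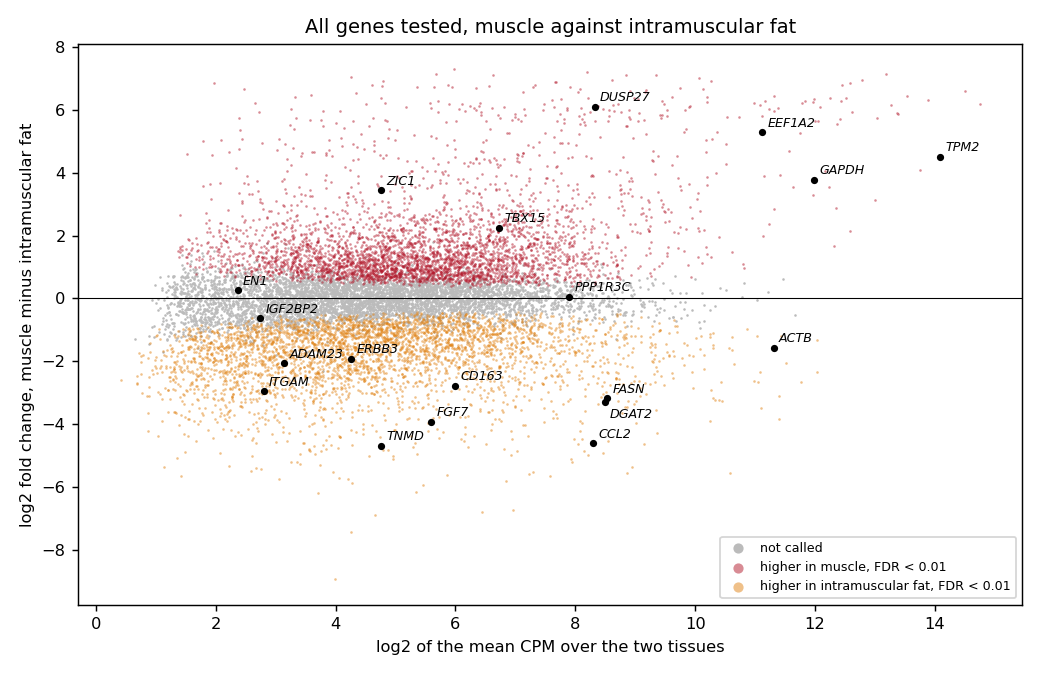
Log2 fold change, muscle minus intramuscular fat, of the 12447 genes tested against the log2 of their mean CPM over both tissues; red and orange points are DEGs higher in muscle (3730) and in intramuscular fat (3711), grey points are not called, and black points are the 19 named genes tested. Muscle DEGs reach above 6 on the log2 scale over a wide range of levels, and TPM2 lies farthest to the right of the named genes.

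Of the 31 named genes 19 could be tested, and 16 of them were DEGs against 59.8% of all genes. The list was made by the study from fat depots of these animals, so its share is no result about the contrast. Of the 19, 6 were DEGs higher in muscle (30.0% of all genes) and 10 in intramuscular fat (29.8%). Of the same 19, 11 were DEGs without overlap of the tissues (29.9% of all genes). DEGs of 1 direction in all 7 animals were 14 (49.2% of all genes). Among all 7441 DEGs, 2017 higher in muscle and 1710 higher in intramuscular fat had no overlap, and 6125 had 1 direction in all 7 animals. Under each alternative run, the scalings included, the 16 DEGs kept their direction. Levels below are CPM with TMM factors of all 34 libraries, and each gives the lowest, median and highest of 8 libraries.

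**Figure D3:**
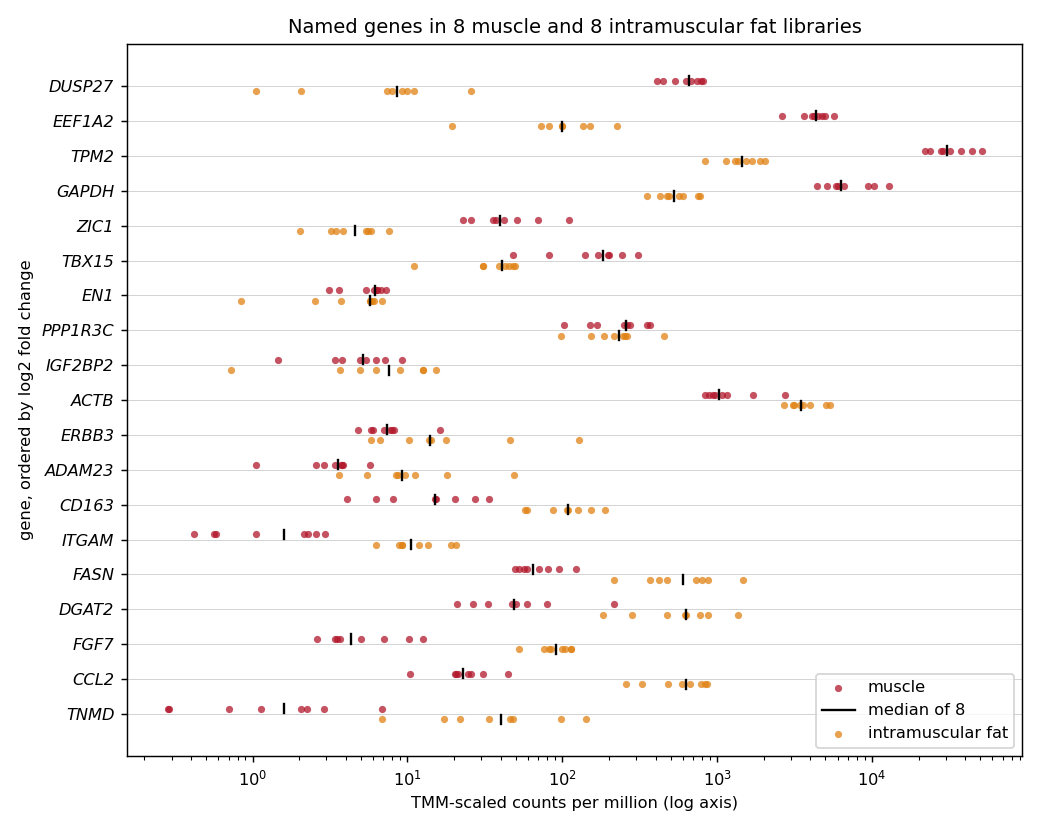
TMM-scaled CPM on a log axis of the 19 named genes tested, with 1 point per library and a black bar at the median of 8; red is muscle and orange intramuscular fat. The genes are ordered by log2 fold change from DUSP27 (6.09) to TNMD (-4.68), and the point clouds of 11 genes do not overlap.

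DUSP27, EEF1A2 and TPM2 were higher in every muscle library than in any intramuscular fat library. DUSP27, now also called STYXL2, is a phosphatase-like protein of striated muscle without catalytic activity. Its level was 410, 655 and 814 CPM in muscle and 1.05, 8.55 and 25.8 in intramuscular fat. Every muscle library stood far above every fat library, of which replicate 8 was the highest and replicate 3 the lowest. The log2 fold change was 6.09 ± 0.48 (SE), with an FDR of 1.88e-09 in edgeR's quasi-likelihood test, or 68.3-fold.

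EEF1A2 encodes the elongation factor that replaces its near-identical paralogue EEF1A1 in muscle, heart and nerve, and reads of the 2 copies can be hard to tell apart. It stood at 2639, 4345 and 5696 CPM in muscle and at 19.4, 100 and 226 in intramuscular fat. The highest fat value, in replicate 5, was still below the lowest muscle value, in replicate 8. The difference was 5.28 ± 0.41 on the log2 scale (edgeR FDR = 1.61e-09).

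TPM2 encodes beta-tropomyosin, which lies along the thin filament and is also made by smooth muscle of vessel walls. It was the most abundant named gene in muscle, with 21907, 30476 and 51134 CPM against 839, 1454 and 2023 in intramuscular fat. The libraries did not overlap, and the log2 fold change was 4.50 ± 0.34 (edgeR FDR = 1.24e-09). Muscle replicate 5 was highest, as was fat replicate 5 in its own tissue.

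These 3 genes did not stand at equal shares of their muscle level within a fat library. In intramuscular replicate 3, TPM2 was at 2.51% of the muscle mean, EEF1A2 at 0.449% and DUSP27 at 0.166%. In replicate 5 the shares were 6.06%, 5.23% and 1.75%, and in replicate 8 they were 3.88%, 3.13% and 4.10%. TPM2 thus had the highest share of the 3 in 7 of the fat libraries and DUSP27 in replicate 8.

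PPP1R3C brings protein phosphatase 1 to glycogen and favours its synthesis. It was at 103, 257 and 369 CPM in muscle and at 98.4, 233 and 452 in intramuscular fat. The ranges lay over each other, and the log2 fold change was 0.05 ± 0.29 (edgeR FDR = 0.87), so a difference was not detectable beyond the spread between animals. Fat replicate 2, at 187% of the muscle mean, was the highest of the fat libraries and replicate 7, at 40.8%, the lowest.

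**Figure D4:**
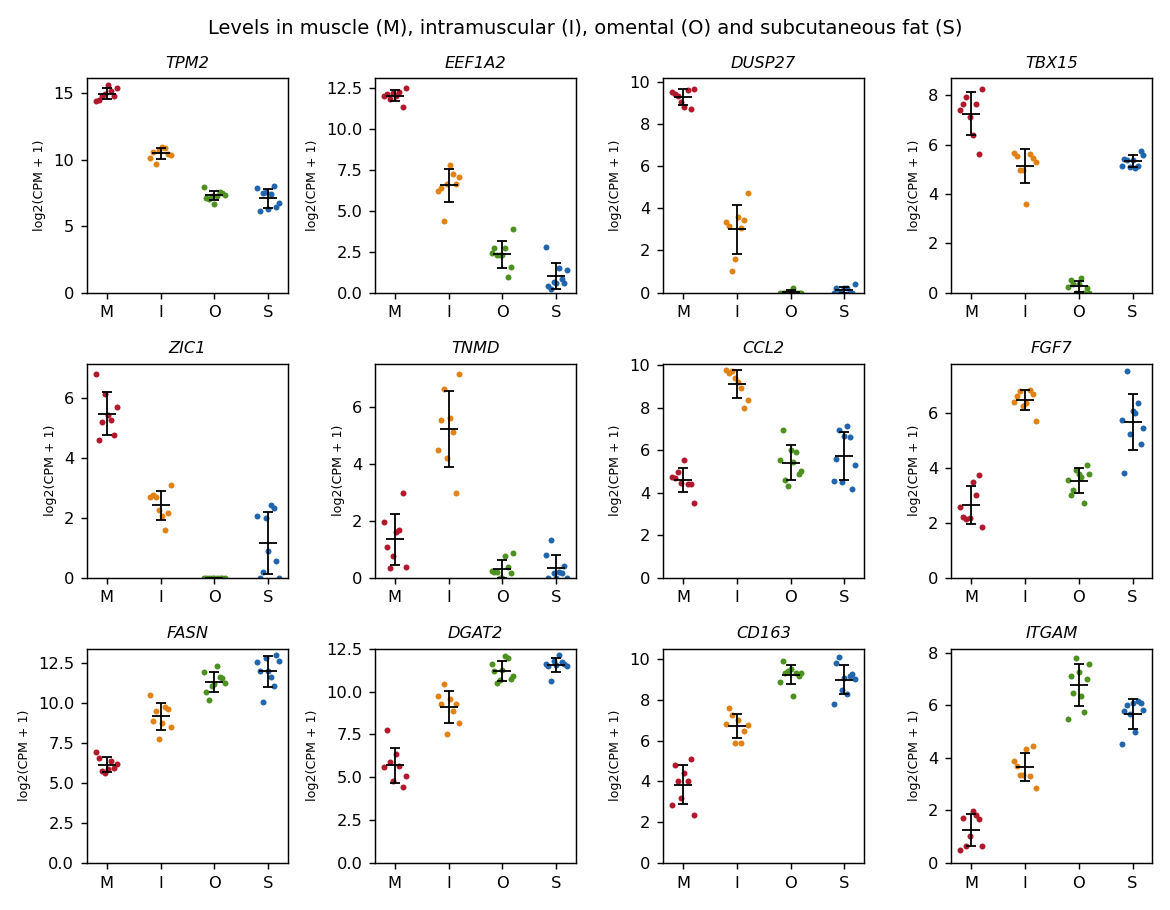
Log2(CPM + 1) of 12 named genes in muscle (M, 8 libraries), intramuscular (I, 8), omental (O, 9) and subcutaneous fat (S, 9); points are libraries and bars the mean ± SD. TPM2, EEF1A2 and DUSP27 step down from M to I and to the outer fats, FASN, DGAT2, CD163 and ITGAM step up, and CCL2 and TNMD are highest in I.

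Placed among the outer fats, intramuscular fat held more of each of these 4 genes. Against the mean of omental and subcutaneous fat, in 1 fit of 34 libraries that shares its intramuscular libraries with the contrast above, 5513 of 13723 genes (40.2%) were DEGs. Of 26 named genes tested there, 15 were higher (21.7% of all genes) and 8 lower (18.4%) in intramuscular fat. Apart from the reference genes, the study took the list from its own DEGs between these fat depots. These counts, and the FDRs of named genes against outer fats here and below, are thus a description. The outer mean also joins unlike depots. ADAM23 and ERBB3 counted as higher, though their omental means, 16.7 and 34.6 CPM, exceeded the intramuscular ones, 14.3 and 30.3. DUSP27 was higher in intramuscular fat by 7.21 ± 0.46 on the log2 scale, and its mean level was 0.0192 CPM in omental and 0.0886 in subcutaneous fat. EEF1A2 was higher by 5.46 ± 0.37, TPM2 by 3.26 ± 0.21 and PPP1R3C by 2.55 ± 0.19 (edgeR FDR at most 1.9e-13 for the 4 genes). PPP1R3C thus had means of 241 ± 94.4 CPM in muscle and 234 ± 104 in intramuscular fat (SD, n = 8 each) but 37.1 ± 8.02 in omental and 45.3 ± 11.3 in subcutaneous fat (SD, n = 9 each).

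A wider set of muscle genes was chosen without the intramuscular libraries. It held the 350 genes with a mean of 10 CPM or more in muscle that exceeded both outer fats by at least 20-fold. In intramuscular fat their median level was 2.20% of the muscle mean, with 1.03% at the 10th and 9.25% at the 90th percentile of genes. The higher of the outer fats had a median of 0.586%, a value that the choice of genes holds to 5% at most. The median over these genes was 0.782% in replicate 3 and 1.01% in replicate 4, and 3.05% in replicate 5 and 3.33% in replicate 8. In 32 of the 350 genes the level exceeded 10% of that in muscle. With 210 genes at least 100-fold higher in muscle the median was 1.58%, and without scaling factors 252 genes met the 20-fold rule, with a median of 3.03%.

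Conversely, 134 genes exceeded muscle by at least 20-fold in both outer fats, and they stood in intramuscular fat at a median of 29.8% of the outer fats' mean. Library medians ran from 14.9% in replicate 8 and 15.7% in replicate 4 to 38.6% in replicate 1 and 38.7% in replicate 3. In 127 of these genes the level was above 10% and in 23 above 50%. Replicate 4 was thus low for both sets, and replicate 8 was highest for the muscle set and lowest for the fat set. The number of such fat-high genes was 165 without muscle replicate 8, and their median was then 31.0%. It was 305 without scaling factors, with a median of 30.7%.

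**Figure D5:**
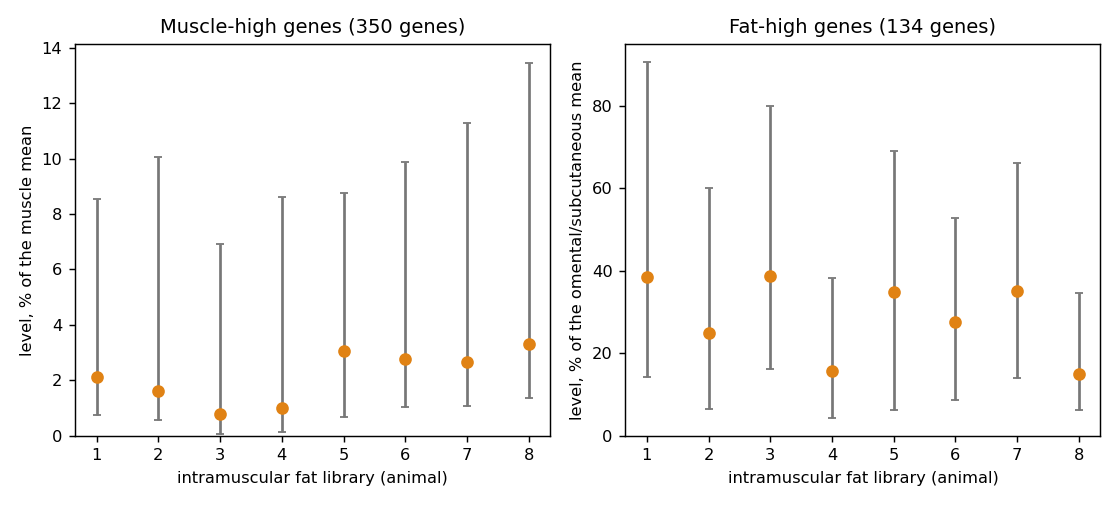
Levels in each intramuscular fat library, numbered by animal, of 350 genes chosen as muscle-high (left, percent of the muscle mean) and 134 genes chosen as fat-high (right, percent of the mean of omental and subcutaneous fat); dots are medians over genes and bars run from the 10th to the 90th percentile of genes. Left medians lie between 0.782% and 3.33% and right medians between 14.9% and 38.7%.

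Both named lipid synthesis genes, FASN and DGAT2, were lower in muscle. FASN, the fatty acid synthase that builds palmitate, was at 49.2, 64.7 and 123 CPM in muscle and 217, 599 and 1470 in intramuscular fat. The tissues did not overlap and replicate 1 was highest in both. In log2 terms the change was -3.17 ± 0.34 (edgeR FDR = 1.19e-07), or 8.98-fold higher in intramuscular fat.

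DGAT2 joins the last fatty acid to make triglyceride. It was at 20.8, 48.7 and 214 CPM in muscle and at 182, 629 and 1373 in intramuscular fat. Muscle replicate 2, at 214 CPM, overlapped the fat, whose lowest library was replicate 4. The log2 fold change of -3.28 ± 0.49 (edgeR FDR = 6.48e-06) became -3.98 without muscle replicate 2. Part of that change lies in the scale, since the median log2 fold change of all genes was then -0.17. Both enzymes were in turn lower in intramuscular than in outer fats, with log2 fold changes of -2.40 ± 0.34 for FASN and -2.09 ± 0.35 for DGAT2 (edgeR FDR = 3.3e-07 and 7.2e-06).

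CCL2, TNMD and FGF7 were higher in every intramuscular fat library than in any muscle library. CCL2 is the chemokine that draws monocytes out of the blood, and its level was 10.4, 22.9 and 44.9 CPM in muscle and 257, 627 and 864 in intramuscular fat. The lowest fat library, replicate 7, was well above the highest muscle library, replicate 5. This was a log2 fold change of -4.59 ± 0.32 (edgeR FDR = 4.71e-10), or 24.1-fold higher in fat. Intramuscular fat also exceeded the outer fats, whose means were 48.6 ± 32.3 and 67.4 ± 47.3 CPM (SD, n = 9 each), by 3.43 ± 0.32 on the log2 scale (edgeR FDR = 3.3e-11). Its receptor gene CCR2 was at 0 to 5 counts in muscle and 0 to 10 in intramuscular fat and was not tested.

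TNMD encodes tenomodulin, a membrane glycoprotein best known from tendon and also made in human adipose tissue. It was at 0.283, 1.59 and 6.83 CPM in muscle and 6.90, 39.9 and 143 in intramuscular fat. The tissues met at their edges, since muscle replicate 8 and fat replicate 7 lay close together, and they did not overlap. The log2 fold change was -4.68 ± 0.63 (edgeR FDR = 2.00e-06), and it was -5.39 without muscle replicate 8. Part of that change lies in the scale, since the median log2 fold change of all genes was then -0.19. Fat replicates 8 and 3, at 143 and 97.7 CPM, were the highest. TNMD was higher in intramuscular than in outer fats by 7.39 ± 0.48 (edgeR FDR = 5.3e-15), with outer means of 0.269 and 0.333 CPM.

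FGF7, the keratinocyte growth factor, is secreted by mesenchymal cells. It stood at 2.60, 4.34 and 12.6 CPM in muscle and 52.4, 91.7 and 114 in intramuscular fat, without overlap. The spread between fat libraries was narrow, and replicate 8 was the lowest of them while muscle replicate 8 was the highest of its tissue. Its log2 fold change was -3.92 ± 0.30 (edgeR FDR = 1.16e-09). Subcutaneous fat, at 63.7 ± 49.96 CPM, lay nearer to intramuscular fat (90.8 ± 21.0) than omental fat did (11.1 ± 3.47).

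CD163 and ITGAM, both genes of myeloid cells, were higher in intramuscular fat than in muscle. CD163, the haemoglobin scavenger receptor of resident macrophages, was at 4.04, 15.2 and 33.4 CPM in muscle and 57.8, 109 and 190 in intramuscular fat. ITGAM, the CD11b chain of a leukocyte integrin, was at 0.416, 1.61 and 2.92 CPM in muscle and 6.25, 10.6 and 20.7 in fat. Neither gene's libraries overlapped between the tissues. The log2 fold changes were -2.77 ± 0.37 and -2.95 ± 0.38 (edgeR FDR = 1.74e-06 and 1.001e-06). Intramuscular fat was in turn below the outer fats, by log2 fold changes of -2.38 ± 0.31 for CD163 and -2.67 ± 0.29 for ITGAM (edgeR FDR = 8.8e-08 and 1.8e-09).

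MMP9, a gelatinase of neutrophils and macrophages, did not pass the count filter. It had 2 counts in all 8 muscle libraries together and 2 to 126 in each fat library, and the highest was replicate 5. That library was the second highest in ITGAM, at 19.1 CPM, and the third in CD163, at 126 CPM.

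Some transcription factors keep a record of where in the embryo a tissue arose, and of those named TBX15 and ZIC1 were higher in muscle. TBX15, a T-box factor, was at 47.8, 183 and 309 CPM in muscle and 11.1, 40.7 and 49.7 in intramuscular fat. Only the lowest muscle library, replicate 8, lay within the range of the fat. The log2 fold change was 2.25 ± 0.33 (edgeR FDR = 5.48e-06). Subcutaneous fat had nearly the same mean as intramuscular fat, 39.9 ± 7.08 (SD, n = 9) and 37.2 ± 12.8 CPM (SD, n = 8), whereas omental fat was at 0.203 ± 0.192.

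ZIC1, a zinc finger factor of the dorsal embryo that has been used as a marker of brown fat, was at 23.0, 39.7 and 111 CPM in muscle. In intramuscular fat it was at 2.03, 4.61 and 7.60 CPM, without overlap, and it had no count in omental fat. Muscle was higher by a log2 fold change of 3.44 ± 0.34 (edgeR FDR = 3.10e-08), or 10.9-fold. The brown fat genes UCP1, which uncouples respiration, and LHX8, a homeobox factor, had 1 and 0 counts in all muscle libraries and 14 and 30 in all intramuscular libraries. Replicates 3 and 5 held 15 and 12 of the 30 LHX8 counts.

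EN1, a homeobox factor of embryonic patterning, did not part the tissues. Its level was 3.12, 6.20 and 7.29 CPM in muscle and 0.845, 5.74 and 6.82 in intramuscular fat, with a log2 fold change of 0.27 ± 0.32 (edgeR FDR = 0.47). Subcutaneous fat was higher than both, at 26.7 ± 5.48 CPM. The transcription factors TCF21 and ISL1 had 0 counts in muscle, which with a floor of 3 counts over the group allows up to 0.1195 CPM, and 16 and 2 counts in intramuscular fat.

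The differences in ERBB3 and ADAM23 were smaller without fat replicate 7, and of the 2 only ERBB3 then ceased to be a DEG. ERBB3, a receptor of neuregulins, was at 4.82, 7.38 and 16.2 CPM in muscle and 5.79, 14.0 and 128 in intramuscular fat. ADAM23, a membrane protein that binds integrins, was at 1.05, 3.57 and 5.75 CPM in muscle and 3.64, 9.18 and 48.9 in fat. Fat replicate 7 was highest in both genes and replicate 6 came next, with 45.8 and 18.1 CPM. The log2 fold changes were -1.92 ± 0.56 for ERBB3 and -2.06 ± 0.46 for ADAM23 (edgeR FDR = 0.0046 and 0.00055). Without intramuscular replicate 7, a library whose animal has no muscle partner, they were -1.02 (edgeR FDR = 0.023) and -1.44 (edgeR FDR = 0.00069). With the animal as a block, ERBB3 was no longer a DEG, at -0.74 (edgeR FDR = 0.053), and ADAM23 was one, at -1.33 (edgeR FDR = 0.0029).

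IGF2BP2, which binds RNA and is common in fetal tissue, was at 1.46, 5.16 and 9.28 CPM in muscle and 0.727, 7.62 and 15.3 in intramuscular fat. The tissues overlapped and the log2 fold change was -0.62 ± 0.43 (edgeR FDR = 0.21). Replicate 5 was lowest and replicate 6 highest in both tissues. Intramuscular fat was above the mean of the outer fats by 2.93 ± 0.35 on the log2 scale (edgeR FDR = 1.3e-08). The means were 8.14 CPM in intramuscular, 3.36 in omental and 0.337 in subcutaneous fat. The intramuscular libraries spanned the omental range of 1.76 to 5.42 CPM.

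Some genes near the floor were seen mainly in the fat. MFSD2A, a lipid transporter, had 0 counts in all 8 muscle libraries and 3 to 51 in the intramuscular libraries, which with a floor of 3 counts over the muscle group was at least 24.7-fold higher. STRA6, the receptor of retinol-binding protein, had 4 counts in muscle and 99 in intramuscular fat, and the antiprotease SLPI had 1 and 36. CYP17A1, a steroid hydroxylase, had 17 and 49 counts, and its 8 fat libraries overlapped those of muscle. BDNF had 2 and 3 counts and TBX5 had 1 and 2, too few for a difference to be seen at this depth.

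The reference genes of qRT-PCR moved in opposite directions. GAPDH, an enzyme of glycolysis, was at 4388, 6300 and 12786 CPM in muscle and 352, 528 and 774 in intramuscular fat. ACTB, the actin of the cytoskeleton, was at 830, 1025 and 2743 CPM in muscle and 2684, 3498 and 5354 in fat. GAPDH did not overlap, and in ACTB only muscle replicate 8 reached above the lowest fat library. The log2 fold changes were 3.77 ± 0.31 and -1.56 ± 0.28 (edgeR FDR = 2.99e-09 and 5.02e-05), and both kept their direction without TMM factors. Both genes have near-identical copies or relatives, so their counts, like those of EEF1A2, are less certain.

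The count ratio of ACTB to GAPDH needs no scaling. It was 0.0739 to 0.466 in muscle (median 0.153) and 5.24 to 11.8 in intramuscular fat (median 6.30). No library overlapped (exact permutation test over 16 libraries, p = 0.00016, adjusted p = 0.00036 over 7 measures), and muscle replicate 8 had the highest ratio of its tissue.

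Several of the named genes higher in fat, but not all, set muscle replicate 8 on the fat side of its tissue. Relative to the intramuscular mean, it had 72.5% of ACTB, 30.0% of CD163, 13.9% of FGF7 and 13.2% of TNMD, each the highest of the 8 muscle libraries. It was also the highest of them in ERBB3, at 16.2 CPM, and in ADAM23, at 5.75 CPM. Its FASN, at 8.83%, and CCL2, at 3.41%, lay within the range of the other muscle libraries, as did its ITGAM, at 2.16 CPM. Its DGAT2, at 3.20%, was the lowest. Of the named DEGs higher in muscle, replicate 8 was the lowest muscle library in DUSP27, EEF1A2 and TBX15, but not in TPM2, ZIC1 and GAPDH. Without this library 7983 genes were DEGs.

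Beyond the named genes, 4 identifiers with the largest fold changes were taken by a fixed rule, a DEG of 1 direction in all 7 animals with a mean of at least 10 CPM in the higher tissue. ENSBTAG00000015406 had 123 to 753 counts in muscle libraries and 1 to 11 in intramuscular fat, with a log2 fold change of 7.28 ± 0.56 (edgeR FDR = 1.41e-09). ENSBTAG00000046333 had 674 to 3044 and 0 to 72 counts, with a change of 7.19 ± 0.66. In the other direction, ENSBTAG00000004796 had 1 count in all muscle libraries and 40 to 704 in each fat library, a ratio of 837 with a 95% exact interval of 150.0 to 33074 that covers counting error only. Its fitted log2 fold change, -8.92 ± 0.90 (edgeR FDR = 4.67e-08), was the largest of the 4 and rests on that 1 count, and its means in omental and subcutaneous fat were 29.6 and 37.1 CPM. ENSBTAG00000014113 had 0 to 2 counts in muscle and 86 to 1014 in intramuscular fat, a log2 fold change of -7.43 ± 0.77 that was -6.58 without intramuscular replicate 5. Its means were 37.9 CPM in intramuscular, 1.96 in omental and 7.60 in subcutaneous fat.

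With all libraries kept, variation between animals was of like size in both tissues. The common coefficient of variation was then 0.345 in muscle and 0.345 in intramuscular fat. In intramuscular fat it was 0.266 without replicate 5, and in muscle it was 0.359 without replicate 4. Muscle replicates 5 and 8, which stood apart on the components, were not left out of this measure. The values after leaving out a library thus do not compare the tissues. Muscle and fat of an animal deviated together in part: the correlation of their deviations from the tissue means, across genes, was 0.32, 0.43, 0.16, 0.48, 0.27 and 0.10 in replicates 1, 2, 3, 5, 6 and 8. The highest value was that of replicate 5, whose muscle and fat libraries both stood low on the second component. In replicate 4, whose muscle label is in doubt, the correlation was 0.02. Libraries of different animals had a median of -0.01, and 5 of the 7 muscle libraries correlated best with the fat of their own animal. Genes are not independent replicates, so these values are a description.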

How the data were processed

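Per the labels, each library came from 1 tissue of 1 animal, prepared with an Illumina TruSeq RNA kit. The authors mapped paired-end reads to bosTau6 with TopHat2 2.0.2 and counted them with HTSeq 0.5.3p3, and the deposited values are raw counts of 24596 genes, with 5 further lines that name no gene and were left out. Genes took 28.9% to 36.7% of all listed reads in the 16 libraries. The strand setting is not given in the sources used here, so overlapping genes may share reads.

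Levels are CPM with TMM factors. Genes were kept by filterByExpr (count minimum 10), and tissues were tested with edgeR 4.0.16 (glmQLFit and glmQLFTest, with limma 3.58.1, DESeq2 1.42.0, R 4.3.3) without a block at an FDR under 0.01, after a test on simulated data. The SE of a log2 fold change is its size over √F, with F the test statistic. Replicate numbers mark the animal, so muscle and fat are paired by the labels, and a block is an alternative. P-values measure spread between animals. The exact permutation tests shuffled the 16 libraries freely, so they took no account of the pairs. Over 56 pairs of libraries of 1 tissue, chi-square per degree of freedom was at least 12.8, so none was counted as 1 sample with another. Floors are 3 counts and cover counting error only. Named genes are those of the primer list, with 2 identifiers per direction. The planned gene lists, paralogue pairs and promoter motifs were not analysed here, because identifiers carry no names. Members, lists and tests were chosen with earlier results of these data known. Alternatives were other tests, scalings, filters, covariates, thresholds and libraries left out.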

Additional observations from a re-analysis of the deposited data

Results flagged for a closer look

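For the 19 named genes and 6 measures of the libraries, 50 groups of 8 values were examined for a library set apart from the rest, measured as its gap to the next value divided by the range. Chance gives about 1 such library in 20 groups, and 6 were found. Intramuscular replicate 5 was the lowest of its tissue in TBX15 (ratio 0.675 on log2(CPM + 1)) and on the second principal component (0.854). Muscle replicate 8 was the highest of its tissue in ERBB3 (0.580), in the number of genes at 1 CPM (0.545) and on the first component (0.574). Intramuscular replicate 3 was lowest in EEF1A2 (0.534).

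The muscle library of replicate 4, labelled female, held 599 counts of the 5 genes that were near 0 in fat labelled female, more than the other female muscle library, which held 1.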

How the results depend on the processing

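The main result, 7441 DEGs, stayed within 1.5 times that number under the alternatives run. The split by direction did not: without scaling factors 1678 genes were higher in muscle and 6634 in intramuscular fat, and in the comparison with the outer fats 3945 genes were lower in intramuscular fat. Of the 7441 DEGs of muscle against intramuscular fat, 5389 kept their call and direction without scaling factors, and 634 turned their sign. Leaving out each library in turn gave 7148 to 7983 DEGs, 3093 to 4062 higher in muscle and 3593 to 4545 in intramuscular fat. Without intramuscular replicate 5 or muscle replicate 4, the comparison with the outer fats gave 5485 to 5883 DEGs, 2977 to 3081 higher and 2508 to 2802 lower in intramuscular fat. The TMM reference library was muscle replicate 8. With intramuscular replicate 5 as the reference, an alternative chosen after seeing the data, 43.0% in place of 50.1% of DEGs were higher in muscle and the median log2 fold change was -0.16. It was -0.17 to -0.19 whenever 1 muscle library was left out.

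The replicate block, with the animal as the block, gave 7328 DEGs, and 6991 of the 7441 kept their call. Chosen after seeing the data, the block without the muscle library of replicate 4 gave 6684 DEGs, and leaving out muscle replicates 4, 5 and 8 with intramuscular replicate 5 gave 8737. In the comparison with the outer fats, the block ended the calls of ACTB (edgeR FDR = 0.013 in place of 0.0070) and ERBB3 (0.068 in place of 0.0014). ACTB and GAPDH were also no longer DEGs there without scaling factors (edgeR FDR = 0.099 and 0.031) or without intramuscular replicate 5 (0.023 and 0.014). Of the 19 named genes, ERBB3 also lost its call with sex as a covariate (edgeR FDR = 0.030) and among the 7 animals with both libraries (edgeR FDR = 0.042), and IGF2BP2 gained one without scaling factors (-1.43, edgeR FDR = 0.0074). The cause was not tested. PPP1R3C and EN1, not DEGs, turned their sign without scaling factors (-0.76 and -0.53). Few counts limit the 12 named genes not tested.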
